A study of Mus musculus with 18 samples.

Results

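The genes described here encode proteins that the ERK pathway switches on and that in turn restrain it, together with transcription factors that report its activity. The 10 members were the Sprouty genes Spry1, Spry2 and Spry4, the Sprouty-related genes Spred1 and Spred2, the phosphatase genes Dusp4, Dusp5 and Dusp6, and the ETS factor genes Etv4 and Etv5. Each was read from the probe set (the group of array probes that measures 1 transcript) with the highest mean over the 18 arrays, among probe sets that carry 1 platform symbol. All 10 were among the 19016 genes tested of 22180 with such a symbol, and every member lay above its array's median on all 18 arrays. A value above the median does not by itself show expression.

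The samples were cultured neurospheres, free-floating clusters of neural stem and progenitor cells, from mice labelled female. There were 6 groups of 3 arrays, namely Pcdh19 knockout (KO) cells at day 4 and at day 0 of differentiation, a mosaic mix of knockout and wild type cells at day 4 and day 0, and wild type (WT) cells at day 4 and day 0. Pcdh19, on the X chromosome, encodes a protocadherin that joins neighbouring cells, and the design compares cultures that lack it, hold it in some of their cells or hold it in all of them, before and during differentiation. The replicates are called technical, so the p-values reflect the spread of arrays within groups, which may hold no variation between cultures. That spread was pooled over the 6 groups for each gene, so an SE given below is not a genotype's own. Mouse age, the deleted part of the gene and the mixing proportions of the mosaic are not stated in the labels.

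ERK is the last kinase of a relay in which growth factor receptors activate RAS, RAF and MEK in turn. Active ERK induces its own inhibitors, which act at different steps: Sprouty proteins dampen signalling between receptors and RAS, SPRED proteins bring the RAS inactivator neurofibromin to the membrane, and dual specificity phosphatases remove the activating phosphates from ERK itself. In neural progenitors, EGF and FGF drive this relay and favour proliferation, and their withdrawal is a common way to start differentiation. The labels do not state the media.

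Promoter sequences were looked up because 5 members fell together over differentiation. RefSeq windows on GRCm38.p6, each running from 250 bases before a gene's start to 50 after it, were at hand for 7 of the 10 members, in 8 windows. Spry4, Dusp4 and Etv4 had none, so of the 5 members that fell only Spry1, Dusp5 and Dusp6 were searched. The 250 bases before the start are printed for Dusp5 and Spry1, which fell most, and for Spred1, which rose. Capitals mark CArG boxes, the sites known to bind serum response factor, a partner of ERK-activated ETS proteins.
Dusp5 (chr19:53528895-53529144, + strand): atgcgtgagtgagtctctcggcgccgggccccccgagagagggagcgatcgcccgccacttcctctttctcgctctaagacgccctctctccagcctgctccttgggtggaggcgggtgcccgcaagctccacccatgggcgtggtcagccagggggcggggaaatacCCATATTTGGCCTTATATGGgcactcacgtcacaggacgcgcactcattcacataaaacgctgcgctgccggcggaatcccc
Spry1 (chr3:37639697-37639946, + strand): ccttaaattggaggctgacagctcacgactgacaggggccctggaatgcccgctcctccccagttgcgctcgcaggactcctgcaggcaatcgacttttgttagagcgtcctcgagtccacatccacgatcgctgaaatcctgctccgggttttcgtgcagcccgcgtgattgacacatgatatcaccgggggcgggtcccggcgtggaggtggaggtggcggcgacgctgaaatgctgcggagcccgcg
Spred1 (chr2:117120821-117121070, + strand): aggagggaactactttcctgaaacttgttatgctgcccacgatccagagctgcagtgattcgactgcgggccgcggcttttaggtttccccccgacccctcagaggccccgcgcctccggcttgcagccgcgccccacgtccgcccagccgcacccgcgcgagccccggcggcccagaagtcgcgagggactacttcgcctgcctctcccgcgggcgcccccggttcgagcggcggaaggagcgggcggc

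The Dusp5 stretch holds a pair of CArG boxes that abut each other, beginning 82 and 72 bases before the start. A CArG box occurred in 1 of the 8 members' windows and in 1.63% of all 32851 windows. At least 2 occurred in 6 windows of the table, those of Dusp5 and of Srf, the gene for serum response factor, among them. This motif was added after the sequences had been seen. The exact ETS word CCGGAAG, searched on both strands, was in 0 of the 8 windows and in 8.86% of all windows. Other forms of the ETS site, shorter ones among them, were not searched, so the windows may hold such sites. The AP-1 words TGACTCA and TGAGTCA, which are each other's reverse complement, were in 0 of the 8 and in 5.2% of all. These are matches of letters in a short window, and binding was not measured.

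Signal of the targeted gene and markers of cell type were checked first. Pcdh19 lay at log2 values of 5.53 to 5.86 on the KO arrays and 6.81 to 6.98 on the WT arrays at day 4, and at 5.39 to 5.68 and 6.66 to 6.85 at day 0. The KO arrays too were thus above the array medians of 4.85 to 4.99 for this gene. Mosaic arrays measured 6.54, 7.09 and 5.52 at day 4, so replicate 3 lay at the KO level and replicate 2 above the WT arrays. At day 0 they measured 6.03, 6.31 and 5.65, and replicate 3 again lay within the range of the KO arrays. Called changes of members in mosaic cultures are therefore also given without replicate 3 of either day. All 9 neural stem cell markers lay above the array median on every array of both days. So did all 8 oligodendrocyte progenitor, all 8 astrocyte and all 7 cycling cell markers, and on each day 8 of the 9 neuron markers. This level therefore does not tell these cell types apart, while 0 of the 4 endothelial markers reached it on every array of either day. Markers of several cell types differed between the days. The summed linear signal of 9 oligodendrocyte markers was 4880 to 7820 on day 4 arrays and 584 to 783 on day 0 arrays, that of 7 cycling cell markers 458 to 1220 and 3470 to 4200, and that of the 9 stem cell markers 15200 to 17100 and 20500 to 22900. Sums on day 4 arrays were also above those on day 0 arrays for markers of oligodendrocyte progenitors (12100 to 13800 and 7790 to 8780), astrocytes (10200 to 12300 and 6340 to 8920) and neurons (4320 to 6330 and 2890 to 3320). The days overlapped for microglia (160 to 194 and 148 to 194), endothelial cells (101 to 125 and 98.4 to 119) and fibroblasts or mural cells (194 to 314 and 252 to 382). Bright markers weigh most in such sums. By limma (adjusted p under 0.05), 6 astrocyte markers rose and 2 fell in each genotype, and 6 stem cell markers fell and 1 rose. Of the neuron markers 6 rose in each, and 0, 1 and 1 fell in KO, mosaic and WT cultures. Of the oligodendrocyte progenitor markers 7, 7 and 6 rose and 1, 0 and 0 fell. All 9 oligodendrocyte markers rose and all 7 cycling cell markers fell. Shares over all genes follow below. The part of these cell types in the changes below was not tested, and in bulk cultures fewer cells of a type and less RNA per cell cannot be told apart.

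At day 4 the ERK phosphatase genes and most Sprouty genes were lower than at day 0 in all genotypes, while the SPRED and ETV genes were not. Spry1, Spry4, Dusp4, Dusp5 and Dusp6 fell in KO, mosaic and WT cultures alike, and Spred1 rose in all 3. The Dusp6 calls rest on the brighter of its 2 probe sets and ended in all 3 genotypes with the mean of both. Of the 10 members, 7 passed in KO cultures (2 higher, 5 lower), 6 in mosaic cultures (1 higher, 5 lower) and 8 in WT cultures (2 higher, 6 lower), by limma at an adjusted p under 0.05. Over all genes 27.4% passed in KO cultures (15% higher, 12.4% lower), 26.2% in mosaic cultures (14.4% higher, 11.9% lower) and 33.6% in WT cultures (17.2% higher, 16.3% lower). The arrays of the days did not overlap for 8 members in KO cultures (39.2% of all genes), 6 in mosaic cultures (38.1%) and 8 in WT cultures (48.9%). After quantile normalization the WT shares over all genes were 21.5% higher and 13.4% lower, and with a common array median 13.9% and 17.3%. Falling in all 3 genotypes was seen in 5 of the 10 members and in 8.93% of all genes, and rising in all 3 in 1 member and in 8.86% of genes. The median log2 fold change of the members was -0.31 in KO, -0.40 in mosaic and -0.36 in WT cultures, against 0.02, 0.02 and 0.09 over all genes.

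**Figure D1:**
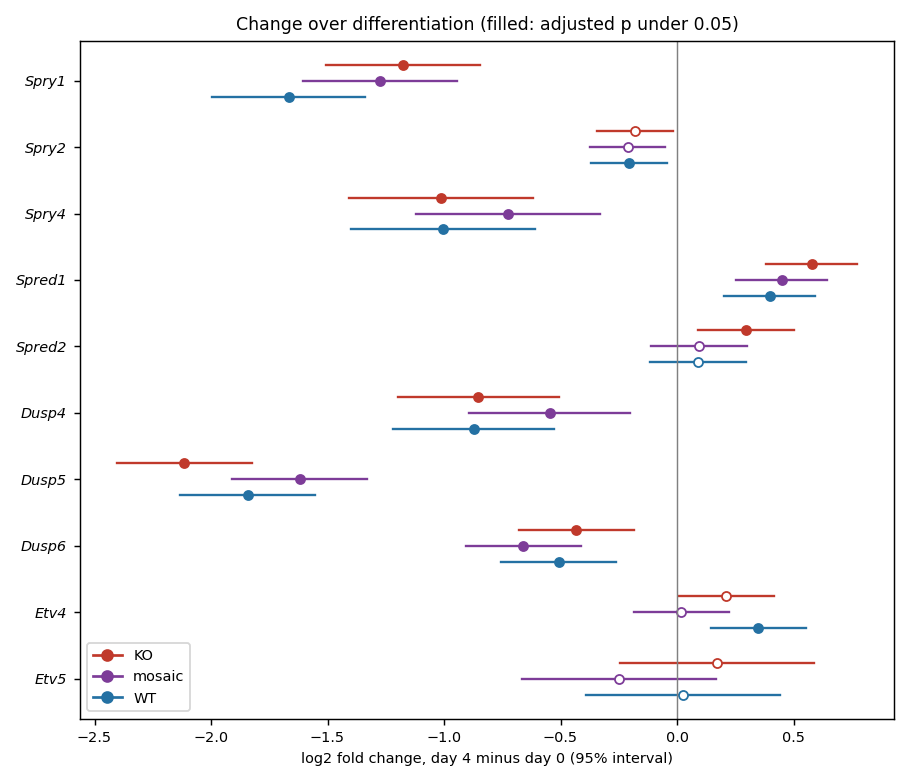
Log2 fold change of each member, day 4 minus day 0, in KO (red), mosaic (purple) and WT (blue) cultures, with 95% intervals from limma. Filled points passed an adjusted p under 0.05, and Dusp5 and Spry1 lie farthest to the left, at -2.11 to -1.62 and -1.67 to -1.17.

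Among the phosphatases, Dusp5, which acts on ERK in the nucleus, fell most. In KO cultures its log2 value was 5.07, 5.56 and 5.39 on the day 4 arrays, against 7.65, 7.42 and 7.30 on the day 0 arrays. Mosaic cultures gave 5.73, 5.46 and 5.44 at day 4 and 7.21, 7.19 and 7.10 at day 0. WT cultures gave 5.48, 5.71 and 5.35 at day 4 and 7.46, 7.45 and 7.16 at day 0. The highest of the 9 day 4 arrays, at 5.73, lay well below the lowest day 0 array, at 7.10. The day 4 values were near those of Pcdh19 on KO arrays (5.39 to 5.86), and the lowest stood at the 53.4 percentile of its array's probe sets. How far background sets these values, and with them the fold sizes, was not tested. The log2 value of Dusp5 fell by 2.11 ± 0.14 (SE, n = 3 per group) in KO cultures, a change of 4.33-fold, with limma's adjusted p = 1.36e-08. The log2 fold change was -1.62 in mosaic cultures (3.07-fold, adjusted p = 2.26e-07 by limma) and -1.84 in WT cultures (3.59-fold, adjusted p = 5.83e-08). These changes stood at the 0.536, 1.01 and 0.831 percentiles of all genes in KO, mosaic and WT cultures.

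Dusp4, a nuclear phosphatase that also acts on the stress kinases JNK and p38, fell less. KO arrays measured 5.68, 5.83 and 5.24 at day 4, against 6.61, 6.53 and 6.17 at day 0. Mosaic arrays measured 5.71, 5.85 and 5.87 at day 4 and 6.16, 6.42 and 6.49 at day 0, and WT arrays 5.43, 5.76 and 5.60 at day 4 and 6.42, 6.75 and 6.23 at day 0. All 9 day 4 arrays were below all 9 day 0 arrays, although KO replicate 3 was the lowest of its group on both days. The day 4 values of Dusp4 were also near those of Pcdh19 on KO arrays, and the part of background in them was not tested. The log2 fold changes were -0.85 ± 0.16 in KO, -0.55 ± 0.16 in mosaic and -0.87 ± 0.16 in WT cultures (SE, n = 3 per group), with limma's adjusted p = 0.000767, 0.0196 and 0.000622. In mosaic cultures the call ended without day 0 replicate 2 (adjusted p = 0.0627), day 0 replicate 3 (0.0772) or day 4 replicate 1 (0.0669), each from limma.

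Dusp6, the cytoplasmic phosphatase selective for ERK, was lower at day 4 in every genotype by its brighter probe set. Its log2 value was 8.38, 8.49 and 8.46 on KO day 4 arrays, against 8.90, 8.91 and 8.83 on KO day 0 arrays. Mosaic arrays gave 8.35, 8.46 and 8.07 at day 4 and 8.99, 9.15 and 8.72 at day 0, and WT arrays 8.51, 8.29 and 8.36 at day 4 and 8.83, 9.04 and 8.80 at day 0. The days did not overlap, the highest day 4 array being 8.51 and the lowest day 0 array 8.72. The falls were 0.43 ± 0.12 in KO, 0.66 ± 0.12 in mosaic and 0.51 ± 0.12 in WT cultures in log2 units (SE, n = 3 per group), with limma's adjusted p = 0.0099, 0.00038 and 0.00306. A second, dimmer Dusp6 probe set ran from 2.83 to 3.91 and rose above the array's 25th percentile (3.57 to 3.67) on 5 of 18 arrays. It gave log2 fold changes of 0.19, 0.26 and -0.17 in KO, mosaic and WT cultures, none of which passed (adjusted p = 0.527, 0.38 and 0.523 by limma). With the mean of both probe sets the log2 fold changes were -0.12, -0.20 and -0.34, and none passed (adjusted p = 0.566, 0.298 and 0.0555 by limma). All 9 day 4 arrays lay below all 9 day 0 arrays for 4 members, Spry1, Dusp4, Dusp5 and Dusp6, and for 9.09% of all genes.

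**Figure D2:**
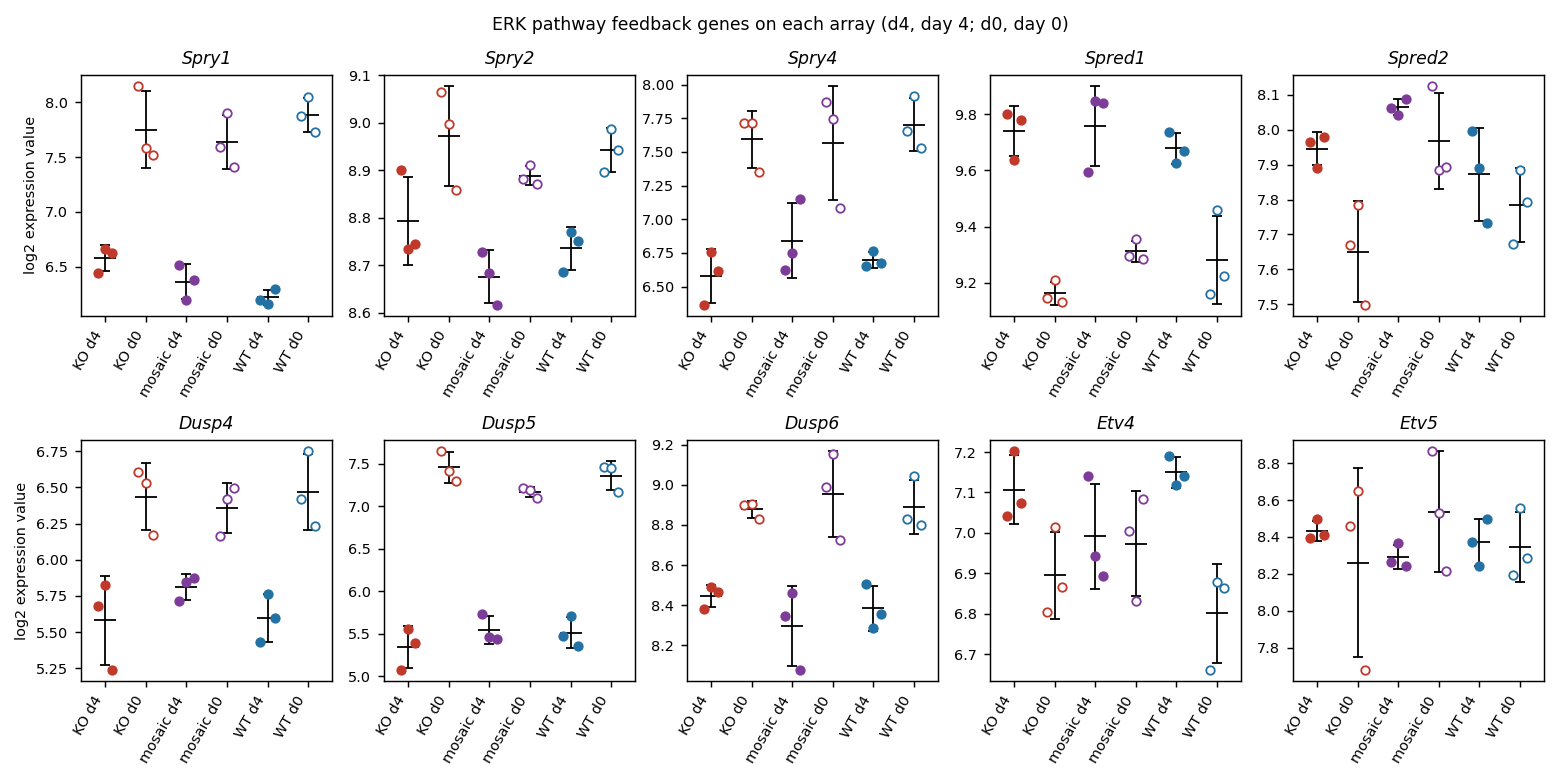
Log2 expression value of each member on all 18 arrays, with KO in red, mosaic in purple and WT in blue, filled points for day 4 and open points for day 0. Black bars give the mean and SD of 3 arrays, and the vertical axis differs between panels. Spry1, Dusp4, Dusp5 and Dusp6 show no overlap between the days, and Spred1 is separated in the opposite direction.

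Of the Sprouty genes, whose products block growth factor receptors from activating RAS, Spry1 fell most. Spry1 measured 6.44, 6.66 and 6.63 on KO day 4 arrays, against 8.15, 7.58 and 7.52 on KO day 0 arrays. Mosaic arrays measured 6.52, 6.20 and 6.38 at day 4 and 7.59, 7.91 and 7.41 at day 0. WT arrays measured 6.20, 6.16 and 6.29 at day 4 and 7.88, 8.05 and 7.73 at day 0. No day 4 array exceeded 6.66 and no day 0 array was below 7.41. The log2 fold changes were -1.17 ± 0.16 in KO (2.26-fold), -1.28 ± 0.16 in mosaic (2.42-fold) and -1.67 ± 0.16 in WT cultures (3.18-fold; SE, n = 3 per group), with limma's adjusted p = 2.46e-05, 1.01e-05 and 6.76e-07. In the order of the 6 group means WT was the highest at day 0 and the lowest at day 4.

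Spry4 fell in each genotype, and its mosaic arrays were more spread than those of KO and WT cultures. KO arrays gave log2 values of 6.36, 6.76 and 6.62 at day 4, against 7.71, 7.71 and 7.35 at day 0. WT arrays gave 6.65, 6.76 and 6.68 at day 4 and 7.66, 7.91 and 7.53 at day 0. Mosaic arrays gave 6.62, 6.75 and 7.15 at day 4 and 7.87, 7.75 and 7.08 at day 0. Replicate 3 of the mosaic was the highest of its group at day 4 and the lowest at day 0, and through it alone the days overlapped. The log2 fold changes of Spry4 were -1.01 in KO, -0.73 in mosaic and -1.003 in WT cultures (SE 0.19, n = 3 per group), with limma's adjusted p = 0.000548, 0.00769 and 0.000589. Without mosaic day 4 replicate 3 the mosaic log2 fold change was -0.88 (adjusted p = 0.00348 by limma), without day 0 replicate 3 it was -0.97 (adjusted p = 0.000427), and in a limma fit on the mosaic arrays alone the call ended (adjusted p = 0.0521).

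Spry2 moved little. Its 9 day 4 arrays ran from 8.62 to 8.90 with a median of 8.73, and its 9 day 0 arrays from 8.86 to 9.06 with a median of 8.91. Only KO replicate 1 kept the days from being separated. The log2 fold changes were -0.18 in KO, -0.21 in mosaic and -0.21 in WT cultures (SE 0.08, n = 3 per group), of which the WT value passed (limma's adjusted p = 0.0978, 0.0507 and 0.0474). The WT call ended when any 1 of the 6 WT arrays was left out (adjusted p = 0.062 to 0.14, limma), and after quantile normalization the WT value was -0.11 (adjusted p = 0.241).

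The SPRED genes, relatives of Sprouty that act on RAS and RAF, went the other way or stayed near their level. Spred1 measured 9.80, 9.64 and 9.78 on KO day 4 arrays, against 9.15, 9.21 and 9.13 on KO day 0 arrays. Mosaic arrays measured 9.59, 9.85 and 9.84 at day 4 and 9.29, 9.36 and 9.29 at day 0, and WT arrays 9.74, 9.63 and 9.67 at day 4 and 9.16, 9.46 and 9.22 at day 0. All 9 day 4 arrays were above all 9 day 0 arrays, as for 9.71% of all genes. Spred1 rose by 0.58 ± 0.09 in KO, 0.45 ± 0.09 in mosaic and 0.40 ± 0.09 in WT cultures in log2 units (SE, n = 3 per group), with limma's adjusted p = 0.000151, 0.0014 and 0.00327. Spred2 rose in KO cultures by 0.29 ± 0.10 (adjusted p = 0.0317 by limma), with values of 7.96, 7.89 and 7.98 at day 4 against 7.67, 7.78 and 7.50 at day 0. In mosaic and WT cultures Spred2 had log2 fold changes of 0.10 and 0.09 (adjusted p = 0.542 and 0.504 by limma). The differences of the KO change from these were not past the threshold, and the KO call ended without KO day 0 replicate 1 (adjusted p = 0.0642), day 0 replicate 3 (0.149), day 4 replicate 1 (0.0744) or day 4 replicate 3 (0.0892), each from limma.

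Etv4 and Etv5, transcription factors of the PEA3 group that are induced by FGF and ERK signalling, showed no common direction. Etv4 was higher at day 4 in WT cultures, at 7.19, 7.12 and 7.14 against 6.66, 6.88 and 6.86 at day 0. That rise was 0.35 ± 0.10 in log2 units (SE, n = 3 per group; limma's adjusted p = 0.0103), and it did not pass without WT day 0 replicate 1 (adjusted p = 0.057). In KO and mosaic cultures Etv4 had log2 fold changes of 0.21 and 0.02 (adjusted p = 0.122 and 0.925 by limma). Etv5 ran from 8.24 to 8.50 over the 9 day 4 arrays and from 7.68 to 8.87 over the 9 day 0 arrays, so the day 0 values enclosed those of day 4. Its log2 fold changes were 0.17 in KO, -0.25 in mosaic and 0.02 in WT cultures (SE 0.20, adjusted p = 0.593, 0.416 and 0.936 by limma). KO day 0 replicate 3, at 7.68 beside 8.46 and 8.65, set the KO value, which was -0.12 without it. A dimmer Etv5 probe set, above the array median on all 18 arrays, gave -0.052, 0.084 and 0.43 in KO, mosaic and WT cultures, the last with an adjusted p = 0.0245 by limma. The brighter and the dimmer Etv5 probe set therefore differ on whether the WT level changed.

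The calls in mosaic cultures were then set without replicate 3, whose Pcdh19 value lay at the KO level on both days. Without day 4 replicate 3 the log2 fold changes were -1.28 for Spry1, -0.58 for Dusp4, -1.57 for Dusp5, -0.55 for Dusp6 and 0.41 for Spred1, and all 5 passed by limma, as did Spry4. Without day 0 replicate 3 they were -1.39 for Spry1, -0.48 for Dusp4, -1.65 for Dusp5, -0.78 for Dusp6 and 0.44 for Spred1, of which all but Dusp4 passed.

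No difference between genotypes passed for any member. The targeted gene Pcdh19 did not pass either, with log2 differences of KO from WT of -1.20 at day 4 and -1.27 at day 0. Its adjusted p by limma was 0.195 and 0.855, although the KO and WT arrays did not overlap. The threshold thus missed a difference set by the design, and a lack of calls does not show equal levels. Over the 6 comparisons of genotypes within a day, 0 of 60 differences passed in limma, where 0% of the 19016 genes passed in each of the 6 comparisons, and 3 of the 60 had an unadjusted p under 0.05. The 60 log2 differences ran from -0.29 to 0.36, and their 95% intervals together from -0.58 to 0.69, that is, up to 1.5-fold lower and 1.62-fold higher. The share of all genes with an unadjusted p under 0.05 was 12.7% at day 4 and 3.61% at day 0 for KO against WT, 15.9% and 4.3% for mosaic against WT, and 6.07% and 4.24% for mosaic against KO. Under 17 alternatives per comparison the members' count was also 0 in each. The largest count of genes was 262, for mosaic against WT at day 4 without mosaic day 4 replicate 1. Arrays of the groups did not overlap in 9 of the 60 differences.

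**Figure D3:**
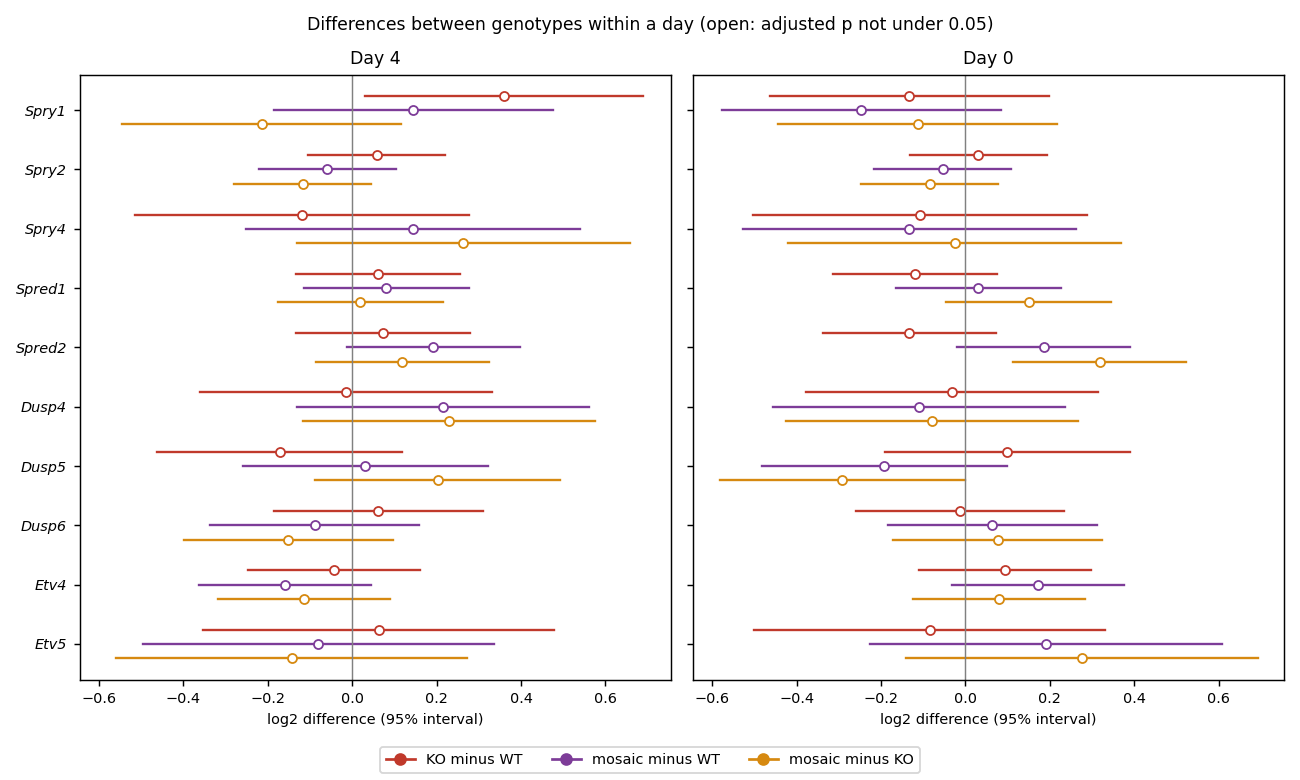
Log2 difference of each member between genotypes at day 4 (left) and day 0 (right), with 95% intervals from limma, for KO minus WT (red), mosaic minus WT (purple) and mosaic minus KO (orange). All points are open because none passed an adjusted p under 0.05, and the points lie between -0.29 and 0.36.

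The 3 differences with a low unadjusted p involved Spry1, Spred2 and Dusp5. Spry1 at day 4 averaged 6.58 ± 0.12 in KO and 6.22 ± 0.07 in WT cultures (SD, n = 3 each), a log2 difference of 0.36 with a 95% interval of 0.03 to 0.69 and an adjusted p = 0.36 by limma. Every KO array lay above every WT array there, which held for 1 of the 10 members, and groups did not overlap for 16.8% of all genes in that comparison. Spred2 at day 0 averaged 7.97 ± 0.14 in mosaic and 7.65 ± 0.14 in KO cultures (SD, n = 3 each), a difference of 0.32 (interval 0.11 to 0.52). Dusp5 at day 0 averaged 7.16 ± 0.06 in mosaic and 7.46 ± 0.18 in KO cultures, a difference of -0.29 (interval -0.58 to -0.0017). Without mosaic day 0 replicate 3 these differences were 0.35 and -0.26. Both had an adjusted p above 0.99 in limma, and groups did not overlap for 3 of the 10 members and 10% of all genes in that comparison. The same count was 3 members and 8.68% of genes for mosaic against KO at day 4, 1 member and 18.2% for mosaic against WT at day 4, 1 member and 11.3% at day 0, and 0 members and 9.2% for KO against WT at day 0. Spred2, with higher values in the mosaic, was among them in 4 of these comparisons. These 4 share the mosaic arrays of each day and are not separate observations, and Spred2 passed in none of them.

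The size of the differentiation change was then set between genotypes. Of 30 such differences of changes, 0 passed in limma and 3 had an unadjusted p under 0.05, where 0% of all genes passed in each of the 3 comparisons. An unadjusted p under 0.05 was reached by 9.51% of all genes for KO against WT, 12.4% for mosaic against WT and 4.29% for mosaic against KO. The fall of Spry1 was smaller in KO than in WT cultures by 0.49 on the log2 scale (interval 0.03 to 0.96, adjusted p = 0.496 by limma). Dusp5 fell less in mosaic than in KO cultures by 0.49 (interval 0.08 to 0.90, adjusted p above 0.99), and by 0.55 without mosaic day 4 replicate 3 or 0.46 without mosaic day 0 replicate 3. Etv4 had a change of 0.02 in mosaic against 0.35 in WT cultures, a difference of -0.33 (interval -0.62 to -0.04, adjusted p = 0.363 by limma), and of -0.28 without mosaic day 4 replicate 3 or -0.27 without mosaic day 0 replicate 3. Intervals of the 30 differences reached from -1.01 to 0.96, so changes that differ by up to 2.01-fold between genotypes lie within them for some members.

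Members also varied between replicate arrays of a group. On KO day 0 replicate 3, 9 of the 10 members had their lowest value of the 3 arrays, with a mean deviation from the group mean of -0.19, while the median deviation over all genes was near 0. On WT day 0 replicate 2, 9 of the 10 members had their highest value, with a mean deviation of 0.15. Over all genes, KO day 0 replicate 3 held the lowest value for 35.3% and WT day 0 replicate 2 the highest for 34.5%. After subtracting group means, Etv5 had a Pearson's r of 0.73 with the mean of the other 9 members over the 18 arrays, Spry4 0.61 and Spry1 0.54, while Etv4 had -0.01. Of the 45 pairs of members 40 had a positive r in these deviations (median 0.28), as a description of values that share an array.

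**Figure D4:**
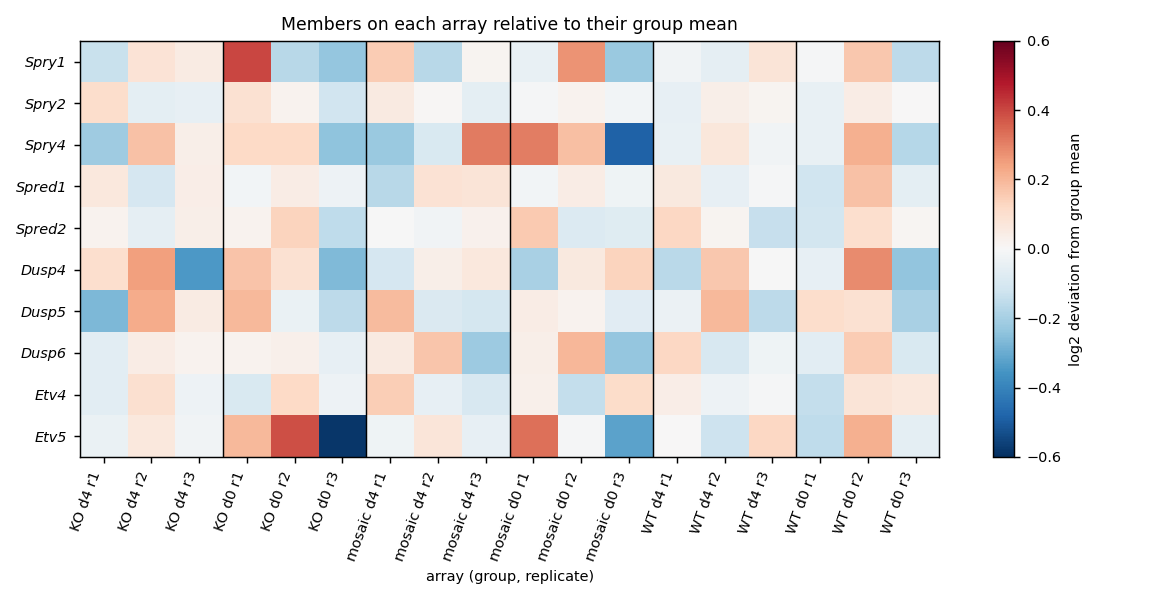
Log2 deviation of each member (rows) from the mean of its group on each of the 18 arrays (columns), red above and blue below the mean. The column of KO day 0 replicate 3 is below the mean for all 10 members and darkest for Etv5, and that of WT day 0 replicate 2 is above the mean for all 10.

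Other parts of the pathway were described with lists of genes that are not members, chosen with earlier results of these data known. Of 20 other genes listed as negative regulators of ERK, stress kinases or receptor signalling, 5 rose and 7 fell in KO cultures. The counts were 4 and 6 in mosaic and 4 and 7 in WT cultures. Among all genes 15% rose and 12.4% fell in KO, 14.4% and 11.9% in mosaic and 17.2% and 16.3% in WT cultures. Dusp1, a phosphatase of stress kinases and ERK, had log2 fold changes of -2.22, -2.45 and -2.32 in KO, mosaic and WT cultures. Socs3, an inhibitor of cytokine receptors, had -1.92, -1.76 and -1.82. Dusp10 and Dusp16, whose products act mainly on stress kinases rather than on ERK, had -1.71, -1.28 and -1.62, and -1.16, -1.04 and -1.38. Dusp1, Socs3, Dusp10 and Dusp16, which passed in each genotype, were the largest changes of that list in WT cultures. The list's median was -0.05, -0.04 and -0.12 in KO, mosaic and WT cultures.

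Most genes listed as outputs of ERK fell. Of 18 tested, 11 fell and 2 rose in KO, 11 and 2 in mosaic and 10 and 2 in WT cultures, with medians of -0.95, -0.81 and -0.85. Among all genes 12.4% fell and 15% rose in KO, 11.9% and 14.4% in mosaic and 16.3% and 17.2% in WT cultures. The immediate early transcription factor genes Fos and Egr1 led with log2 fold changes of -5.43 and -4.64 in KO, -5.19 and -4.13 in mosaic and -5.48 and -4.65 in WT cultures. Ier2, another immediate early gene, had -2.98, -3.03 and -2.95, and Bhlhe40, a repressor of the circadian clock, -2.49, -2.59 and -2.46. All 4 passed in each genotype by limma.

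**Figure D5:**
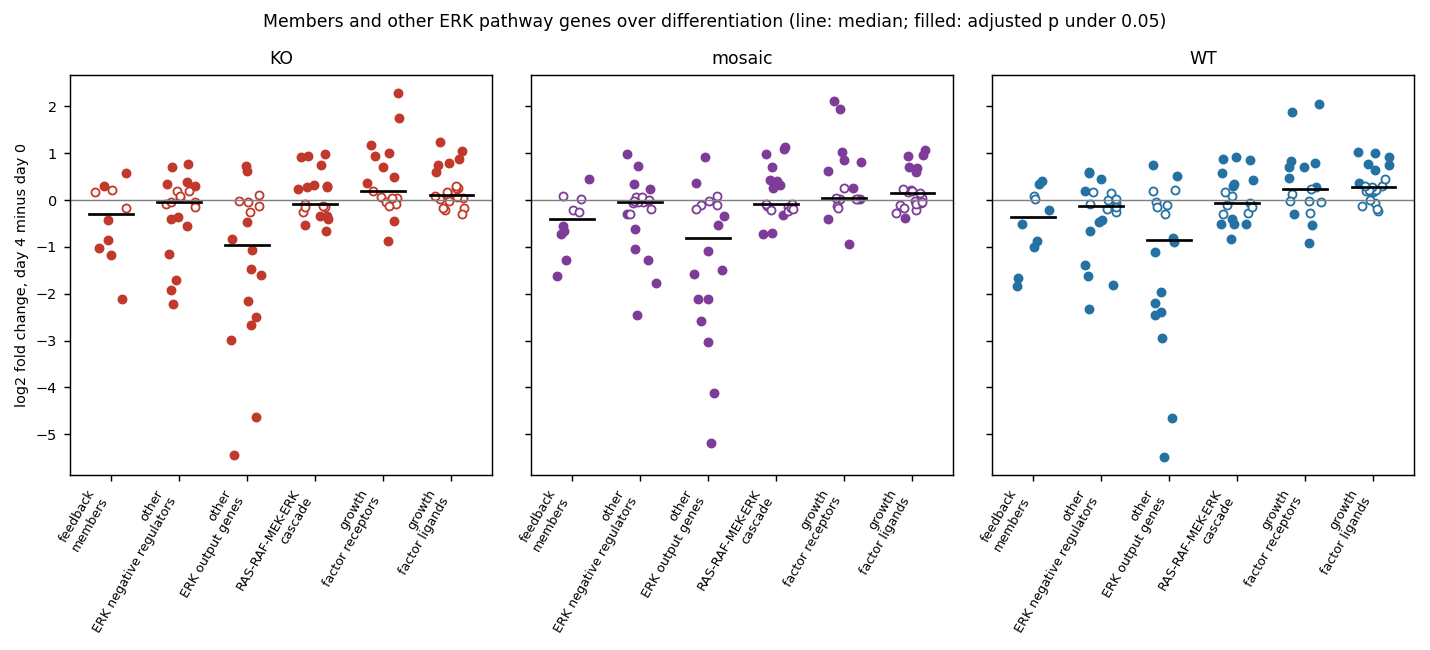
Log2 fold change, day 4 minus day 0, of the 10 members and of each tested gene in 5 other lists of the ERK pathway, in KO (left), mosaic (middle) and WT (right) cultures. Filled points passed an adjusted p under 0.05 and black lines give medians, which are lowest for the ERK output genes, at -0.95, -0.81 and -0.85.

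Components of the relay itself moved in both directions. Of 19 genes of the RAS, RAF, MEK and ERK cascade and its adaptors that were tested, 9 rose and 5 fell in KO, 8 and 3 in mosaic and 7 and 5 in WT cultures. The shares of all genes that rose and fell were 15% and 12.4% in KO, 14.4% and 11.9% in mosaic and 17.2% and 16.3% in WT cultures. The RAS relatives Rras2 and Mras and the phosphatase gene Ptpn11, which promotes RAS activation, rose by 0.76, 0.97 and 0.95 in KO, 1.08, 0.98 and 1.14 in mosaic and 0.91, 0.86 and 0.88 in WT cultures. The kinase gene Araf had log2 fold changes of -0.54, -0.70 and -0.83 in KO, mosaic and WT cultures. A further 8 genes of this list are not analysed here.

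Receptor and ligand genes act upstream of the relay. Among all genes too more rose than fell, 15% and 12.4% in KO, 14.4% and 11.9% in mosaic and 17.2% and 16.3% in WT cultures. The WT order depended on scaling, as with a common array median 13.9% rose and 17.3% fell. Of 17 receptor genes 8 rose and 2 fell in KO, 7 and 2 in mosaic and 8 and 3 in WT cultures. Egfr, the EGF receptor gene, fell by 0.87 in KO, 0.94 in mosaic and 0.91 in WT cultures on the log2 scale, while Fgfr1, an FGF receptor gene, rose by 0.71, 0.62 and 0.84. Pdgfrb rose by 2.29, 2.11 and 2.06, and Erbb3, a neuregulin receptor gene, by 1.76, 1.94 and 1.88, in KO, mosaic and WT cultures. Of 21 ligand genes tested 6 rose and 0 fell in KO, 6 and 1 in mosaic and 7 and 0 in WT cultures, so 6, 7 and 7 of 21 passed, near the shares of 27.4%, 26.2% and 33.6% of all genes. Fgf1 rose by 1.25, 0.94 and 0.995, Pdgfa by 0.87, 1.07 and 1.03, and Hbegf, a ligand of the EGF receptor, by 1.06, 0.69 and 0.77. Fgf13, listed by family name although its protein stays inside cells, rose by 0.74, 0.70 and 0.92.

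The genes most like the members were sought by correlation with the members' mean profile, each member centred on its own mean, over the 18 arrays. The 5 highest were Lmnb1, which encodes a nuclear lamin, with a Pearson's r of 0.97, the tubulin gene Tubb6, the Wnt antagonist gene Sfrp4, the kinase gene Camk2b and the thymosin gene Tmsb4x, each also with r of 0.97. Their log2 fold changes lay between -0.67 for Tmsb4x in mosaic cultures and -2.30 for Sfrp4 in WT cultures. The 18 arrays fall into days, so these values describe the shared change with the day. Members were not scaled, so those with large changes weigh most in the mean profile. Within the set, Spry1 and Spry4 had r of 0.93 and 0.92 with the mean of the other members. Spry2, Dusp4, Dusp5 and Dusp6 had 0.82 to 0.91. Spred1, Etv4 and Spred2 had -0.86, -0.65 and -0.39, and Etv5 had 0.2, so the 5 genes named resemble the falling members rather than all 10.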

How the data were processed

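RNA extracted with Trizol was biotin labelled and hybridised to 18 microarrays, 1 per sample, per the labels. The deposited values are log2 expression per probe set, normalized by the authors. How they were normalized is not stated in the labels, and base 2 was read from the range of 0.722 to 13.97. Array medians were 4.85 to 4.99. The number of arrays limits the precision.

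Of 41345 probe sets, 23521 had 1 platform symbol, 1814 several and 16010 none listed. Genes above the array's 25th percentile on at least 3 arrays were kept. A mean per group was fitted to all 18 arrays in R 4.3.3 with limma 3.58.1 (lmFit, eBayes, two-sided, Benjamini-Hochberg over 19016 genes). There were 12 contrasts. The fit was tested on simulated data. The members and lists were chosen with earlier results of these data known. All members are named, as are up to 4 called genes of each pathway list with the largest change in WT differentiation and the 5 most correlated genes that are no predicted, olfactory or small RNA genes. The CArG motif was added after the sequences were read. Protein sequences were not used here.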

Additional observations from a re-analysis of the deposited data

How the results depend on the processing

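The counts of members that passed lay between 6 and 8 in KO, 5 and 7 in mosaic and 6 and 8 in WT differentiation over 17 alternatives each, and at 0 in all other comparisons. Of 21 called changes of members, 16 passed under all alternatives other than the choice of probe set (a threshold of 0.01 included), and the exceptions were Spry2 and Etv4 in WT, Spred2 in KO and Dusp4 and Spry4 in mosaic cultures. The dimmer probe sets, an alternative chosen after seeing the data, turned Dusp6 to 0.19 in KO and 0.26 in mosaic cultures and Etv5 to -0.052 and 0.084. With the mean of both probe sets Dusp6 did not pass in KO (-0.12), mosaic (-0.20) or WT cultures (-0.34). Uncalled values near 0 crossed it without 1 array: Etv5 ran from -0.12 to 0.37 in KO and from -0.053 to 0.13 in WT cultures, and Etv4 from -0.055 to 0.074 in mosaic cultures. Etv5 in WT cultures was -0.012 with a common array median. The cause was not tested.

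Same-numbered replicates correlated in their deviations by -0.15 to 0.17 over 27 pairs, above 0.1 in 4, and 18 correlated best with their own number. Every pair of the 3 differentiation comparisons did so, with r of 0.015 to 0.16. Because 0 comparisons had all pairs above 0.1, the numbers were not taken as pairs, but a pairing by number is not excluded. With the replicate number as a block 7 members passed in KO, 6 in mosaic and 7 in WT differentiation, the last without Spry2 (adjusted p = 0.0533 by limma).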
